A study of Mus musculus with 4 samples.

Results

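The keratin family is the set of protein-coding mouse genes whose symbol is Krt followed directly by a number, and it was followed here through messenger RNA of macrophages sorted from prostate tumours that did or did not overexpress BMP4. The rule was applied to the symbols of GENCODE M21 and gave 53 of the 39179 genes in the files, of which 28 encode type I and 25 type II keratins. One further keratin symbol, Krt74, is annotated as a pseudogene and was left out. Of the 53 genes, 23 had no count in any library, 13 had 1 to 9 counts over the 4 libraries and 17 had at least 10.

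Keratins are the intermediate filament proteins of epithelial cells. A filament is built from pairs of an acidic type I and a basic type II keratin, so that cells usually make them together, and the pair changes with the kind of epithelium: Krt8 and Krt18 in simple epithelia such as the luminal layer of the prostate, Krt5 and Krt14 or Krt15 in basal layers, Krt1 and Krt10 or Krt4 and Krt13 in the upper layers of stratified epithelia, and a separate set in hair. Macrophages hold vimentin filaments in their place, and keratins are not counted among their typical products.

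MycCaP-BMP4 macrophages (2 libraries) were taken from tumours of MycCaP cells that overexpress BMP4, a secreted ligand of the bone morphogenetic protein receptors. They were set against MycCaP macrophages (2 libraries), taken from tumours of the parent line. MycCaP is a mouse prostate cancer line that carries a human MYC transgene, and both groups grew as grafts under the skin of FVB mice. In both groups cells with CD45, CD11b and F4/80 and without GR1 at the surface were sorted from dissociated tumours. The labels do not give the age of the mice, whether a line is 1 clone, or whether samples came from separate mice or pools, so p-values here reflect how far these 4 libraries spread, and that spread may be technical. The cell type label is shared by all samples, yet F4/80 appears in the titles of MycCaP-BMP4 samples alone, and whether the gate was the same was not tested.

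The libraries held between 23058263 and 24967143 counts in genes. A floor of 3 counts was worth 0.120 to 0.130 CPM (counts scaled to library size) on gene counts alone. Such floors and the counting intervals given for single genes cover counting error only. The intervals pool the 2 libraries of a group and leave out the spread between them. All other CPM values use TMM scaling factors. Macrophage markers mostly lay lower in MycCaP-BMP4 libraries. Among 15 tested, both MycCaP-BMP4 libraries were below MycCaP in 13 (29.7% of all genes tested) and above it in 0 (28.9%). Their median log2 fold change was -1.10. The 15 pan-macrophage genes, among them Adgre1 (F4/80), Itgam (CD11b) and Ptprc (CD45), were all detected, and their summed level was 6767 and 24814 CPM in MycCaP-BMP4 replicates 1 and 2, against 33471 and 29711 CPM in MycCaP replicates 1 and 2. The smallest p among them belonged to Aif1, with 54.4 and 149 CPM in MycCaP-BMP4 libraries, against 514 and 290 CPM in MycCaP libraries, and the next to Fcgr1, with 43.7 and 140 CPM in MycCaP-BMP4 libraries, against 264 and 299 CPM in MycCaP libraries. Bmp4 itself had 511 and 182 CPM in MycCaP-BMP4 libraries, against 0.175 and 0.0422 CPM in MycCaP libraries. In bulk samples such as these, more cells of a type and more RNA per cell cannot be told apart.

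Keratins of several kinds of epithelium lay higher in MycCaP-BMP4 libraries: basal Krt15, activated Krt6a, stratified Krt13 and Krt78, simple Krt19 and the hair keratin Krt36. Which cells of the sorted samples held this RNA was not tested. In each of these 6 genes both MycCaP-BMP4 libraries stood above both MycCaP libraries, with fitted log2 fold changes of 2.07 to 6.07. Krt8, Krt7, Krt80, Krt10 and Krt4 overlapped between the groups. All 53 genes summed to 1120 and 504 CPM in MycCaP-BMP4 libraries, against 119 and 125 CPM in MycCaP libraries. Krt15 carried most of that difference, since without it the sum was 182 and 95.1 CPM in MycCaP-BMP4 libraries, against 76.2 and 77.3 CPM in MycCaP libraries.

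The counts allowed 11 members to be tested, 5 of type I and 6 of type II. The other 42 were under the filter on low counts, so the 11 are not a sample of the family. Krt13, Krt6a and Krt78 passed that filter on their MycCaP-BMP4 counts and would not have passed on their MycCaP counts. For Krt4 the reverse held. The direction of these genes is thus tied to how they entered, and the counts of members and the median below share that limit. Across all genes, at a Benjamini-Hochberg adjusted p of 0.05, edgeR's quasi-likelihood test called none of 14075 genes (0%) and so none of the keratins, with 6 keratins at an unadjusted p under 0.05, all higher. That unadjusted p was met by 19% of all genes, 12.3% higher and 6.76% lower. Limma-voom also called 0 keratins and 0% of all genes. DESeq2 called Krt15, Krt6a, Krt19, Krt13, Krt78 and Krt36, all higher, where it called 9.84% of all genes, 6.83% higher and 3.01% lower. Other settings of the edgeR fit called 5 of 30 keratins with no filter on low counts (5.07% of all genes), 4 of 11 with library size alone (0.462%) and 0 of 11 with the replicate number as a block (0.0142%). No keratin was lower in both MycCaP-BMP4 libraries, against 29.7% of all genes tested, and 6 were higher in both, against 28.9%. The median log2 fold change was 2.07 over the 11 keratins and -0.03 over all genes tested.

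**Figure D1:**
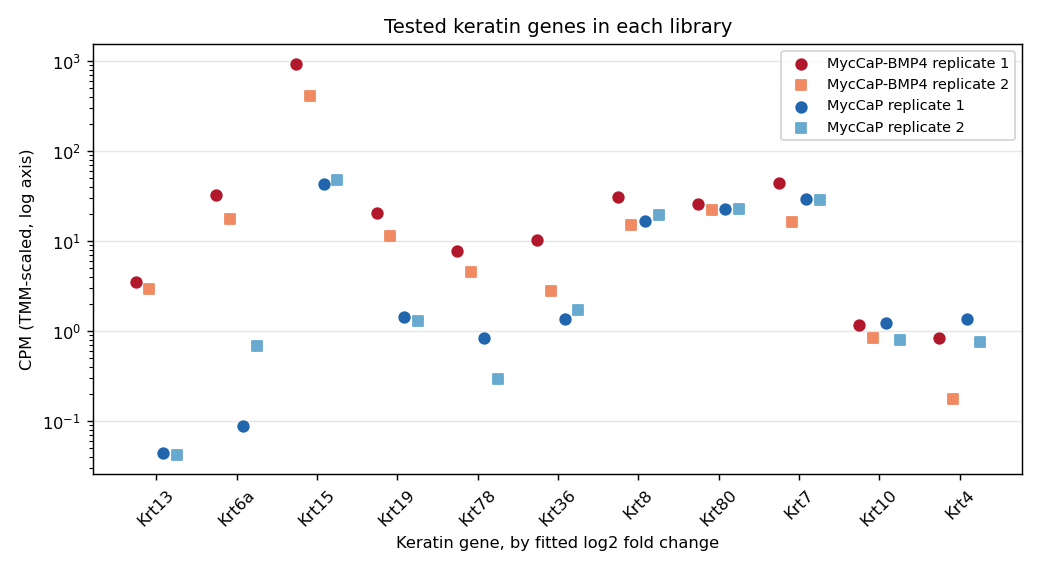
CPM of the 11 tested keratin genes in each library, on a log axis, with genes ordered by fitted log2 fold change and libraries shown as single points. Krt15 reached 938 and 409 CPM in MycCaP-BMP4 libraries, against 42.5 and 47.4 CPM in MycCaP libraries, and the points of Krt8, Krt80 and Krt7 lay close together.

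Krt15 is a type I keratin of the basal layer of stratified epithelia and of hair follicle stem cells. Its gene lies on chromosome 11 (ENSMUSG00000054146, chr11:100131758-100135928 on GRCm38, minus strand). It had 25936 and 9325 counts in MycCaP-BMP4 libraries, against 973 and 1123 counts in MycCaP libraries. As levels these were 938 and 409 CPM in MycCaP-BMP4 libraries, against 42.5 and 47.4 CPM in MycCaP libraries, and the groups did not overlap. The mean was 674 ± 374 CPM (SD, n = 2) in MycCaP-BMP4 libraries and 44.96 ± 3.43 CPM (SD, n = 2) in MycCaP libraries. The difference of the means was larger than either SD. The log2 fold change was 3.91 ± 0.52 (SE; adjusted p = 0.101 by edgeR, 1.33e-13 by DESeq2). By CPM it ranked 96th and 376th among all genes in MycCaP-BMP4 libraries, against 4650th and 4260th in MycCaP libraries.

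The other basal keratins did not accompany it. Krt5, the usual type II partner of Krt14 and Krt15 in basal cells, had no count in any library, which at this depth allows up to 3 counts in each. Krt14 had 1 and 0 counts in MycCaP-BMP4 libraries, against 0 and 1 counts in MycCaP libraries. Among the 8 other markers of basal epithelium, Trp63, the transcription factor of basal cells, had 6.87 and 1.58 CPM in MycCaP-BMP4 libraries, against 0.0437 and 0.169 CPM in MycCaP libraries. Lamb3, a laminin chain of the basement membrane, had 17.4 and 7.68 CPM in MycCaP-BMP4 libraries, against 0.131 and 0.211 CPM in MycCaP libraries. Itga6, an integrin subunit of hemidesmosomes, went the other way, with 90.1 and 92.6 CPM in MycCaP-BMP4 libraries, against 120 and 125 CPM in MycCaP libraries. Among 7 basal markers tested, 3 had both MycCaP-BMP4 libraries on top (28.9% of all genes tested) and 1 had both below (29.7% of all genes). Their median log2 fold change was 0.28, and edgeR called 0 and DESeq2 3, where DESeq2 called 9.84% of all genes.

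Krt6a, a type II keratin induced in wounded and hyperproliferative epithelium, was scarcely counted in MycCaP libraries. It had 908 and 398 counts in MycCaP-BMP4 libraries, against 2 and 16 counts in MycCaP libraries, that is, 32.9 and 17.5 CPM in MycCaP-BMP4 libraries, against 0.0874 and 0.675 CPM in MycCaP libraries. The log2 fold change was 6.02 ± 0.87 (SE; adjusted p = 0.106 by edgeR, 3.82e-14 by DESeq2). It shares 60.7% of its 36-base words with transcripts of other genes, chiefly its neighbour Krt6b, so that reads could be split between them or set aside as multiply aligned. Krt6b had 1 count in each MycCaP-BMP4 library and none in MycCaP libraries. Of the type I partners of Krt6a, Krt16 had 26 and 4 counts in MycCaP-BMP4 libraries, against 1 and 0 counts in MycCaP libraries, a ratio of 27.7 with an exact 95% counting interval of 4.61 to 1131. Krt16 shares 47.5% of its 36-base words with other genes, and Krt17 had at most 1 count in any library.

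Krt19, the small type I keratin of simple and ductal epithelia that lacks most of a tail, had 573 and 260 counts in MycCaP-BMP4 libraries, against 33 and 31 counts in MycCaP libraries. The groups did not overlap, and the log2 fold change was 3.54 ± 0.48 (SE; adjusted p = 0.101 by edgeR, 7.46e-09 by DESeq2). Its sequence shares no 36-base word with an annotated transcript of another gene. The mean level was 16.1 ± 6.59 CPM (SD, n = 2) in MycCaP-BMP4 libraries and 1.38 ± 0.0953 CPM (SD, n = 2) in MycCaP libraries.

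The remaining keratins of simple epithelia behaved otherwise. Krt8 had 30.8 and 14.9 CPM in MycCaP-BMP4 libraries, against 16.6 and 19.4 CPM in MycCaP libraries, and the MycCaP values lay between those of the other group. Krt7, found in ducts and glands, had 44.7 and 16.2 CPM in MycCaP-BMP4 libraries, against 29.3 and 28.7 CPM in MycCaP libraries. The log2 fold changes were 0.35 ± 0.41 for Krt8 and 0.07 ± 0.49 for Krt7 (SE; adjusted p = 0.659 and 0.948 by edgeR). Without MycCaP-BMP4 replicate 1 these became -0.27 for Krt8 and -0.84 for Krt7, so their sign rested on that library. Krt18, the usual type I partner of Krt8, was scarcely counted in either group. It had 0 and 3 counts in MycCaP-BMP4 libraries, against 0 and 2 counts in MycCaP libraries, while Krt8 had 852 and 340 counts in MycCaP-BMP4 libraries, against 379 and 459 counts in MycCaP libraries. Krt18 shares 6.42% of its 36-base words with other annotated transcripts and no exon base with another gene, but copies outside the annotation were not analysed here, and how many of its reads aligned more than once was not tested. Krt8 shares 33.9%, chiefly with the pseudogene Krt8-ps. Krt20 and Krt23 had at most 2 counts in any library.

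Keratins of the upper layers of stratified epithelium divided. Krt13, the type I keratin of oral and oesophageal lining, had 98 and 66 counts in MycCaP-BMP4 libraries, against 1 and 1 counts in MycCaP libraries. This is a ratio of 75.8 with an exact 95% counting interval of 20.6 to 631, and the fitted log2 fold change was 6.07 ± 0.82 (SE; adjusted p = 0.101 by edgeR, 5.51e-05 by DESeq2). Krt13 was the most even of the 6 between the MycCaP-BMP4 libraries, at 3.55 and 2.90 CPM. Its type II partner Krt4 did not follow, with 0.832 and 0.176 CPM in MycCaP-BMP4 libraries, against 1.36 and 0.759 CPM in MycCaP libraries (log2 fold change -1.04 ± 0.92, SE; adjusted p = 0.559 by edgeR).

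Krt78, a type II keratin of stratified epithelia, had 213 and 104 counts in MycCaP-BMP4 libraries, against 19 and 7 counts in MycCaP libraries. Its log2 fold change was 3.44 ± 0.72 (SE; adjusted p = 0.141 by edgeR, 1.10e-04 by DESeq2), and the groups did not overlap. Its neighbour Krt79 had 20 and 4 counts in MycCaP-BMP4 libraries, against 1 and 1 counts in MycCaP libraries, a ratio of 11.1 with an exact 95% counting interval of 2.75 to 96.8. Krt80, a type II keratin linked to differentiating epithelium, was nearly level over the 4 libraries, at 25.7 and 22.3 CPM in MycCaP-BMP4 libraries, against 22.7 and 22.8 CPM in MycCaP libraries (log2 fold change 0.08 ± 0.26, SE; adjusted p = 0.889 by edgeR). Krt10 was level too, at 1.16 and 0.834 CPM in MycCaP-BMP4 libraries, against 1.22 and 0.802 CPM in MycCaP libraries (adjusted p = 0.988 by edgeR). Krt1, the partner of Krt10, had no count, nor had Krt2, Krt9, Krt76 or Krt77.

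Of 14 hair shaft keratins, 7 had any count. Krt36, a type I hair keratin, had 282 and 63 counts in MycCaP-BMP4 libraries, against 31 and 41 counts in MycCaP libraries. Its levels of 10.2 and 2.77 CPM in MycCaP-BMP4 libraries, against 1.36 and 1.73 CPM in MycCaP libraries, made MycCaP-BMP4 replicate 1 the outlying library. The log2 fold change was 2.07 ± 0.74 (SE; adjusted p = 0.229 by edgeR, 0.0475 by DESeq2), and it was 0.84 without MycCaP-BMP4 replicate 1. Krt32 had 31 and 8 counts in MycCaP-BMP4 libraries, against 0 and 1 counts in MycCaP libraries, a ratio of 36.03 with an exact 95% counting interval of 6.10 to 1459. Krt31, Krt83 and Krt87 were at or under 10 counts in every library. The 8 keratins of the inner root sheath and companion layer of the hair follicle held 1 count in each MycCaP-BMP4 library and none in MycCaP libraries, all from Krt25.

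**Figure D2:**
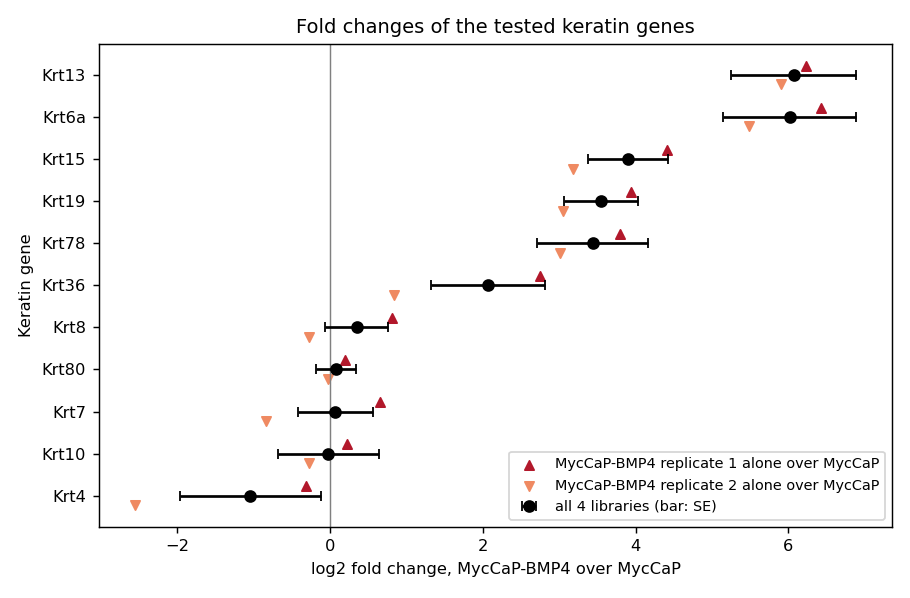
Log2 fold changes of the 11 tested keratin genes, MycCaP-BMP4 over MycCaP, from all 4 libraries (circles, bars are SE) and with 1 MycCaP-BMP4 library at a time (triangles). The top 5 genes lay at 3.01 or more in each of these fits, while Krt36 had 0.84 without replicate 1 and Krt8, Krt80, Krt7 and Krt10 lay on either side of 0.

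The mix of keratins differed between the groups on a scale that does not depend on how libraries were normalised. Levels are compared between genes here as CPM per kilobase of annotated exon. Krt15 made up 89.3% and 87.6% of the summed keratin level in MycCaP-BMP4 libraries, against 54.7% and 56.2% in MycCaP libraries. Krt8 made up 2.65% and 2.88% in MycCaP-BMP4 libraries, against 19.2% and 20.7% in MycCaP libraries. These shares were not tested. Setting Krt15 against Krt8 within each library gave ratios of CPM of 30.4 and 27.4 in MycCaP-BMP4 libraries, against 2.57 and 2.45 in MycCaP libraries. The 2 MycCaP-BMP4 libraries lay closer together in this ratio than in some others. Krt36 over Krt8, for example, was 0.331 and 0.185 in them, and Krt13 over Krt8 was 0.115 and 0.194. Relative to Krt8, the same 6 of 10 other tested keratins had both MycCaP-BMP4 libraries on top, and Krt7 and Krt4 had both below. Krt8 overlapped between the groups (log2 fold change 0.35), so dividing by it largely repeats the unscaled comparison. The share of all genes on this scale was not computed.

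Type I and type II keratins were far from balanced. Type I genes summed to 552 and 242 CPM per kilobase in MycCaP-BMP4 libraries, against 26.6 and 29.4 CPM per kilobase in MycCaP libraries. Type II genes summed to 42.6 and 22.3 CPM per kilobase in MycCaP-BMP4 libraries, against 17.4 and 18.3 CPM per kilobase in MycCaP libraries. Type I genes thus held 92.8% and 91.6% of the keratin level in MycCaP-BMP4 libraries, against 60.4% and 61.6% in MycCaP libraries. Without Krt15, type I genes summed to 21.4 and 10.4 CPM per kilobase in MycCaP-BMP4 libraries, against 2.51 and 2.55 CPM per kilobase in MycCaP libraries, and so lay below the type II sum in each library. The annotated exons of Krt7 and Krt80 span 7049 and 6393 bases, the longest of the family, which lowers their level per kilobase.

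**Figure D3:**
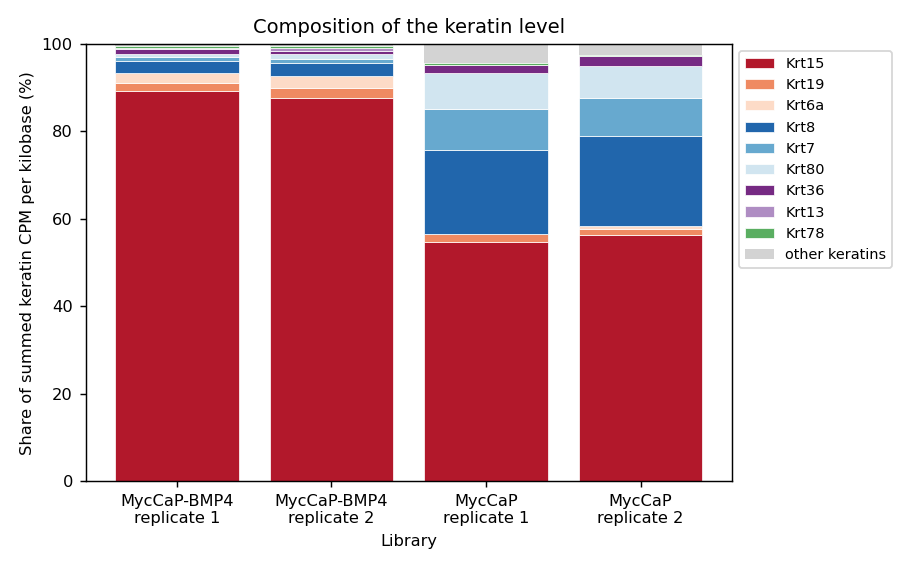
Share of the summed keratin CPM per kilobase of exon held by each of 9 genes in each library, in percent, with the other 44 keratins in grey. Krt15 filled 89.3% and 87.6% of the bars of MycCaP-BMP4 libraries, against 54.7% and 56.2% in MycCaP libraries, and the blue share of Krt8, Krt7 and Krt80 was smaller in MycCaP-BMP4 libraries.

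Position in the genome was not part of the rule. Of the 53 genes, 27 lie in the type I cluster of chromosome 11 (chr11:99232761-100269871 on GRCm38) and 26 in the type II cluster of chromosome 15 (chr15:101347444-102032027), where the type I gene Krt18 also lies. Krt32, Krt36, Krt13, Krt15 and Krt19 lie within 7 neighbouring keratin genes, and all 5 had more counts in both MycCaP-BMP4 libraries. By CPM, 28.9% of all genes tested were higher in both. The other members of this run are Krt31 and Krt35 (1 count in MycCaP replicate 1). Krt31, at its edge, had 10 and 1 counts in MycCaP-BMP4 libraries, against 9 and 8 counts in MycCaP libraries. The bounds of the run were not set beforehand, and no test was made of it. The next gene on one side, Krt9, had no count, and Krt34 on the other side had none. Krt16, which lies beyond Krt9 and Krt14, also had more counts in both MycCaP-BMP4 libraries. Krt32 and Krt16 were under the filter for testing, and nearly all their counts came from MycCaP-BMP4 libraries. On chromosome 15, Krt79 and Krt78 lie side by side, between Krt4 and Krt8, and Krt4 and Krt8 overlapped between the groups. Krt6a stood alone, with Krt5 on one side at 0 and Krt6b at 1 count in each MycCaP-BMP4 library.

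**Figure D4:**
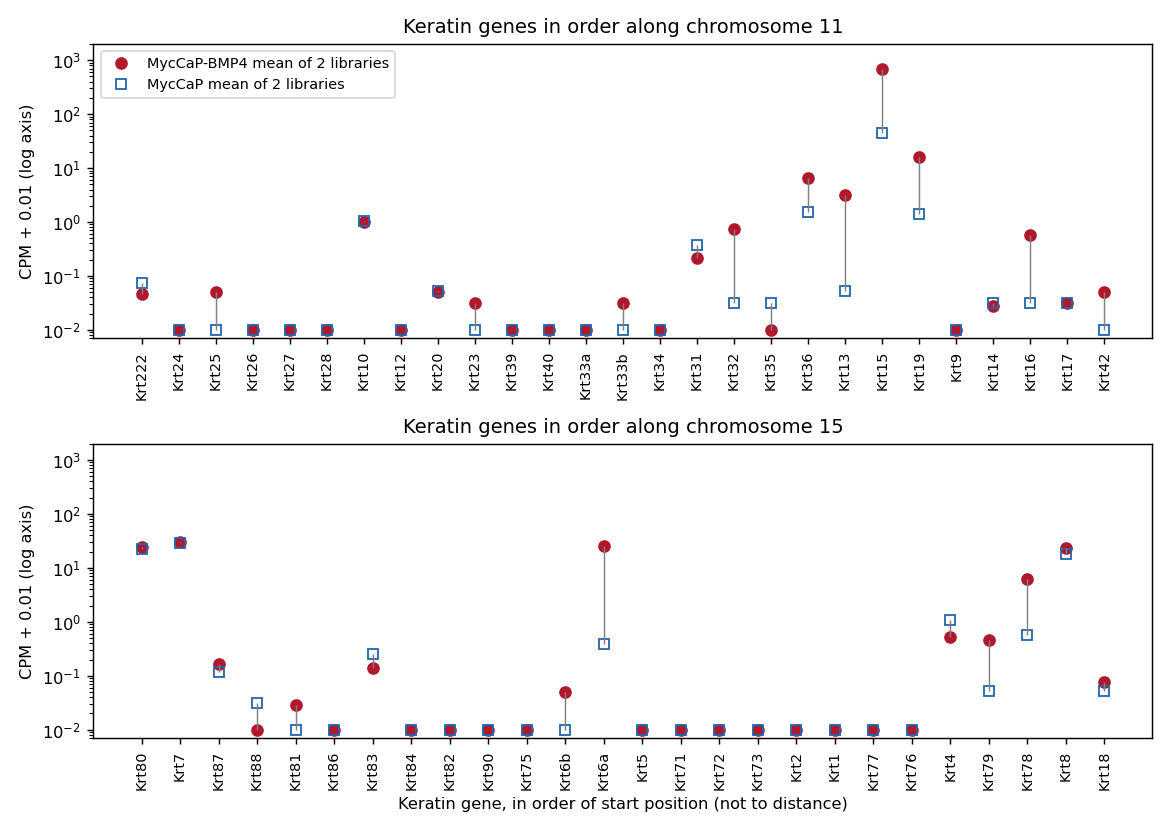
Mean CPM (with 0.01 added, log axis) of the 53 keratin genes in MycCaP-BMP4 (circles) and MycCaP (squares) samples, 2 libraries each. Genes are in order along chromosomes 11 and 15. Among genes with at least 10 counts, those with more counts in both MycCaP-BMP4 libraries are Krt32, Krt36, Krt13, Krt15, Krt19 and Krt16 on chromosome 11, and Krt6a, Krt79 and Krt78 on chromosome 15. Of these, Krt32, Krt13, Krt16 and Krt79 reached 10 counts only through MycCaP-BMP4 libraries, so their direction was fixed by that cut. Krt32, Krt16 and Krt79 were not tested. By CPM, 28.9% of all genes tested were higher in both.

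RefSeq promoter windows of 300 bases around the start site (GRCm38.p6) were at hand for 36 of the 53 genes, and Krt15, Krt19 and Krt6a were not among them. Those of Krt13, Krt36 and Krt78, the members of the 6 higher keratins that have one, are shown with that of Krt8, which overlapped between the groups. Capitals mark matches on either strand to TATAAA (the TATA box), TGANTCA (the AP-1 site), GGCGCC (a site bound by SMADs of the BMP pathway) or the p53-family half-site.
Krt13, chr11:100121517-100121816, minus strand: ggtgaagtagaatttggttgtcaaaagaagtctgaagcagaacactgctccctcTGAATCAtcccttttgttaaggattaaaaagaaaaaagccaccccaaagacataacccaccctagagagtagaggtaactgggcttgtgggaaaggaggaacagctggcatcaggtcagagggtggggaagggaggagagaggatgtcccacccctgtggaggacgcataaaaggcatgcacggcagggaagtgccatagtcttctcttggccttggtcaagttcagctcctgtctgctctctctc
Krt36, chr11:100105577-100105876, minus strand: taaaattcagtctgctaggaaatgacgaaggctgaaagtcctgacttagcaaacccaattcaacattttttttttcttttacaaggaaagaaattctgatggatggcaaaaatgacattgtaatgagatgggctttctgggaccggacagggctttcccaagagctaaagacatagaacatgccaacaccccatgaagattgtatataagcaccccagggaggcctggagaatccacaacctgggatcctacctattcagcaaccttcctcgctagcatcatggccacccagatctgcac
Krt78, chr15:101954238-101954537, minus strand: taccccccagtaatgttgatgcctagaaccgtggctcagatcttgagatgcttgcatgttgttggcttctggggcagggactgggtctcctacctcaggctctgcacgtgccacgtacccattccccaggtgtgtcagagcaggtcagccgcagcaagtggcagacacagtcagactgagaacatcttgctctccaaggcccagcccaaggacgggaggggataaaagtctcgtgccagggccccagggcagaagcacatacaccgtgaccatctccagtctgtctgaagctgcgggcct
Krt8, chr15:102004293-102004592, minus strand: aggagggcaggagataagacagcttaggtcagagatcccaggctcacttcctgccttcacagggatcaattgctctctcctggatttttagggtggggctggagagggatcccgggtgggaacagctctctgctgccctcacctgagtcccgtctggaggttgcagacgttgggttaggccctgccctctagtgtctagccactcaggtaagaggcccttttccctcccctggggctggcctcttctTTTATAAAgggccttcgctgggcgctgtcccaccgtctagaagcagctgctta
TATAAA was found in the windows of 19 of the 36 keratins (52.8%), against 13.6% of all 32851 windows. A keratin was counted once over its windows, while the background counts single windows. Of the 4 windows shown Krt8 has it, on both strands in overlapping letters, at -3 and -1 from the start site. In Krt42 it lay at 19, so a match at any position need not be a TATA box. Variants of TATAAA were not sought. TGANTCA was found in 1 keratin, Krt13 (2.78%, against 7.81% of all windows), as TGAATCA in the window shown. The other RefSeq window of Krt13, not printed, holds the AP-1 site TGACTCA at 2 places. The GGCGCC site was found in 1 keratin, Krt18 (2.78%, against 11.9%). The p53-family half-site was found in Krt5, Krt76 and Krt82 (8.33%, against 8.36%). A match describes the letters of this window and is not evidence of binding.

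The 2 MycCaP-BMP4 libraries differed in how far they stood from the MycCaP mean. All 11 tested keratins had the higher CPM in replicate 1, by 1.15 (Krt80) to 4.74 times (Krt4), and Krt15 by 2.29 times. Replicate 1 was also the library with the lower macrophage markers: the median pan-macrophage gene differed from the MycCaP mean by -2.35 in log2 CPM in replicate 1 and by -0.44 in replicate 2. Of the 15 genes of that list edgeR called 0 and DESeq2 2, both lower (9.84% of all genes). The part of the macrophage marker difference in the keratin values was not tested. Without replicate 1, edgeR called 5 of the 11 keratins (Krt15, Krt6a, Krt19, Krt13 and Krt78, all higher) where it called 7.12% of all genes, and the median of the 11 was 0.84. Without replicate 2, it called 8 of the 11, all higher, where it called 38.7% of all genes. In such fits the lone library is assumed to vary as the MycCaP pair does. Scaled on the pan-macrophage genes, which moved the median of all genes to 1.64, the median of the 11 keratins was 4.15 and edgeR called 6, against 7.97% of all genes.

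**Figure D5:**
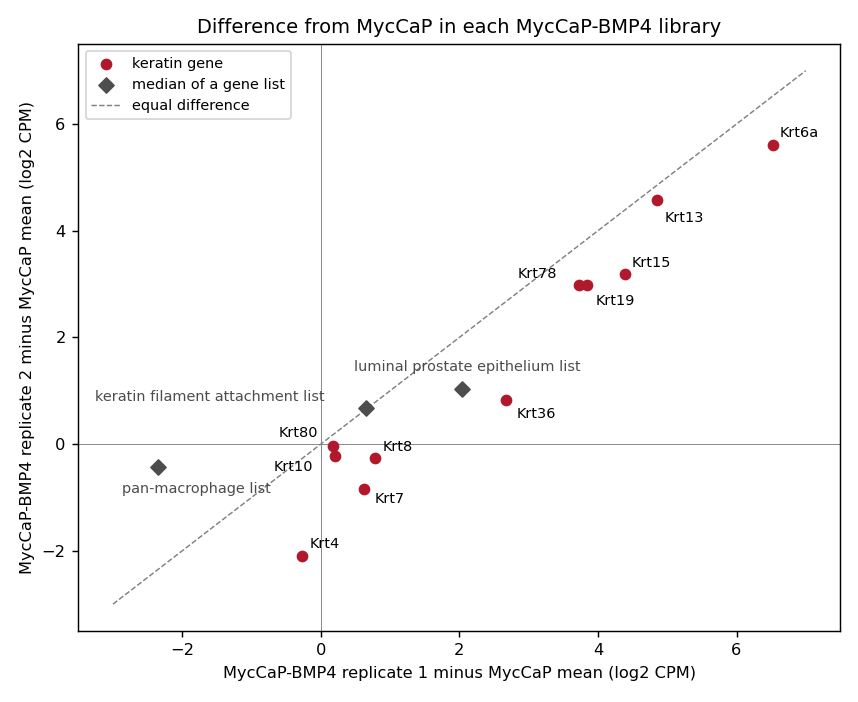
Difference in log2 CPM from the MycCaP mean of each tested keratin in MycCaP-BMP4 replicate 1 (x axis) and replicate 2 (y axis), with the medians of 3 gene lists as diamonds. Krt6a, Krt13, Krt15, Krt19 and Krt78 stood at 2.98 or more in both libraries, and the pan-macrophage list at -2.35 and -0.44.

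Markers of luminal prostate epithelium, whose cells lack CD45 and should not pass the sort, also lay higher in MycCaP-BMP4 libraries, and their part in the keratin values was not tested. The 16 genes summed to 1268 and 509 CPM in MycCaP-BMP4 libraries, against 239 and 276 CPM in MycCaP libraries. Among 10 luminal markers tested, both MycCaP-BMP4 libraries were above MycCaP in 9 (28.9% of all genes) and below it in 1 (29.7%). Their median log2 fold change was 1.53, and edgeR called 0 and DESeq2 5 (9.84% of all genes). The 1 below was Cdh1 (E-cadherin), with 0.326 and 1.93 CPM in MycCaP-BMP4 libraries, against 5.16 and 4.05 CPM in MycCaP libraries. Cldn4, a claudin of epithelial tight junctions, had 15.99 and 9.18 CPM in MycCaP-BMP4 libraries, against 0.962 and 1.94 CPM in MycCaP libraries. Elf3, an epithelial transcription factor, had 10.2 and 6.01 CPM in MycCaP-BMP4 libraries, against 1.57 and 2.24 CPM in MycCaP libraries. Foxa1, a partner of the androgen receptor, had 58.4 and 30.5 CPM in MycCaP-BMP4 libraries, against 11.3 and 19.0 CPM in MycCaP libraries. Several defining markers were at or near 0, since Esrp1 had no count, Cldn7 and Prom1 at most 2 in a library, and Epcam 0 and 14 counts in MycCaP-BMP4 libraries, against 7 and 6 counts in MycCaP libraries. Divided by the summed luminal markers of the same library, Krt15 stood at 0.740 and 0.804 in MycCaP-BMP4 libraries, against 0.178 and 0.171 in MycCaP libraries. On that scale Krt13, Krt15, Krt19, Krt6a and Krt78 kept both MycCaP-BMP4 libraries on top, Krt36 overlapped, and the other 5 lay lower. Krt8 was one of these, at 0.0243 and 0.0293 in MycCaP-BMP4 libraries, against 0.0692 and 0.0700 in MycCaP libraries. The summed luminal markers were themselves higher in both MycCaP-BMP4 libraries, so a gene that is level between the groups lies lower once divided by them. The share of all genes on the scale of luminal markers was not computed.

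Markers of keratinocyte differentiation were mixed. Ivl, Lor, Sprr1a, Sprr1b and Krtdap, which define cornifying skin, had no count in any library. Among 5 such markers tested, both MycCaP-BMP4 libraries were above MycCaP in 3 (28.9% of all genes) and below it in 1 (29.7%). Their median log2 fold change was 2.15, and edgeR called 0 and DESeq2 3 (9.84% of all genes). Perp, a desmosome gene of stratified epithelia, had 253 and 96.4 CPM in MycCaP-BMP4 libraries, against 20.3 and 22.5 CPM in MycCaP libraries. Calml3, an epithelial calmodulin-like gene, had 29.2 and 6.10 CPM in MycCaP-BMP4 libraries, against 2.89 and 2.66 CPM in MycCaP libraries. Sbsn, a gene of the upper epidermis, had 3.51 and 2.85 CPM in MycCaP-BMP4 libraries, against 1.01 and 0.422 CPM in MycCaP libraries. The 1 below was Lgals7, a galectin of stratified epithelia, with 1.05 and 0.527 CPM in MycCaP-BMP4 libraries, against 2.27 and 2.40 CPM in MycCaP libraries. The 8 fibroblast and 8 endothelial markers had medians of -0.08 and -0.70, with none called by edgeR. DESeq2 called no endothelial marker and 2 fibroblast markers (9.84% of all genes), of which Dcn was higher and Thy1 lower. Dcn had 29.0 and 9.13 CPM in MycCaP-BMP4 libraries, against 0.699 and 3.25 CPM in MycCaP libraries, and Thy1 had 2.13 and 2.46 CPM in MycCaP-BMP4 libraries, against 9.40 and 9.45 CPM in MycCaP libraries.

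The list for keratin filament attachment held mainly desmosome and linker genes, and also Krtcap2 and Krtcap3, membrane proteins named after keratinocytes that do not attach filaments. Among 17 listed, 9 could be tested, and both MycCaP-BMP4 libraries were above MycCaP in 8, Krtcap3 among them (28.9% of all genes), and below it in 0 (29.7%). The median log2 fold change over these 9 was 0.80, and edgeR called 0 and DESeq2 3 (9.84% of all genes). Krtcap2 overlapped between the groups. Ppl (periplakin), a linker of the cornified envelope, had 71.3 and 40.9 CPM in MycCaP-BMP4 libraries, against 10.5 and 12.9 CPM in MycCaP libraries. Its relative Evpl (envoplakin) had 25.3 and 8.91 CPM in MycCaP-BMP4 libraries, against 5.11 and 5.91 CPM in MycCaP libraries. The desmosomal plaque gene Pkp2 had 66.7 and 24.2 CPM in MycCaP-BMP4 libraries, against 9.31 and 18.9 CPM in MycCaP libraries. Dsp, the plakin that anchors keratin at desmosomes, had 1 count in all, and of the desmosomal cadherins Dsg2 had 1 count and Dsg1a, Dsg3, Dsc1, Dsc2 and Dsc3 had none.

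Other intermediate filament genes showed no common direction. Among 10 tested, both MycCaP-BMP4 libraries were above MycCaP in 4 (28.9% of all genes) and below it in 4 (29.7%). Their median log2 fold change was 0.26, and edgeR called 0 and DESeq2 3 (9.84% of all genes). Vim (vimentin), the filament of macrophages and other mesenchymal cells, had 1030 and 2181 CPM in MycCaP-BMP4 libraries, against 2421 and 2041 CPM in MycCaP libraries. Synm (synemin), which links filaments to the cell cortex, had 177 and 69.3 CPM in MycCaP-BMP4 libraries, against 19.0 and 24.3 CPM in MycCaP libraries. Lmna, which encodes the nuclear lamins A and C, had 979 and 688 CPM in MycCaP-BMP4 libraries, against 371 and 328 CPM in MycCaP libraries. Des (desmin), the filament of muscle, had 5.90 and 3.47 CPM in MycCaP-BMP4 libraries, against 0.612 and 0.844 CPM in MycCaP libraries. Lmnb1, a nuclear lamin gene among the 4 below, had 67.5 and 105 CPM in MycCaP-BMP4 libraries, against 163 and 140 CPM in MycCaP libraries.

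The genes whose pattern over the 4 libraries lay nearest to that of Krt15 were sought among 2252 other genes with a mean CPM within 4-fold of it. They were Parm1, Slc5a3, Mgp, Flnc and Cldn3, with root mean square differences in centred log2 CPM of 0.143 to 0.414. Parm1 had 252 and 119 CPM in MycCaP-BMP4 libraries, against 13.4 and 16.6 CPM in MycCaP libraries. Cldn3, a tight junction gene of epithelia, had 359 and 126 CPM in MycCaP-BMP4 libraries, against 25.8 and 27.6 CPM in MycCaP libraries. With 4 libraries in 2 groups, likeness of this kind describes these samples and carries no test.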

How the data were processed

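Messenger RNA of 4 sorted samples, 2 MycCaP-BMP4 and 2 MycCaP, was read in pairs from strand-specific libraries, per the labels' protocols. The authors deposited unnormalised read counts, 1 whole number for each Ensembl gene and library. HTSeq, STAR 2.6.0b, RSEM, Bowtie2 2.2.3 and the build GRCm38 (mm10) are listed in the submitters' processing notes, without saying which tool did what. Neither the strand setting nor the annotation release is given in the sources used here. HTSeq summary lines entered neither library sizes nor tests. They held 3.37% to 6.03% of counted reads as outside genes, 2.70% to 2.90% as ambiguous and 8.01% to 10.6% as aligned more than once, so genes with near-identical copies are uncertain.

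Symbols, coordinates and exon lengths came from GENCODE M21 (GRCm38), which holds 37693 of the 39179 identifiers. The cell line label set the 2 groups. Genes were kept by filterByExpr (14075), scaled with TMM and tested, two-sided and with no covariate, with edgeR 4.0.16's quasi-likelihood F test and Benjamini-Hochberg adjustment over all genes, at 0.05. The SE is the fold change divided by the square root of F. Other fits used DESeq2 1.42.0, limma-voom (limma 3.58.1), other scalings and filters, the replicate number as a block, and each library left out in turn. Log2 CPM differences used a prior count of 2. Words of 36 bases in GENCODE transcripts, on both strands, gave the share of sequence held in common with other genes.

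Every keratin with at least 10 counts is named, with up to 4 genes of each other list by p. Some genes outside that rule were named after their values were seen. They were the sort marker genes Adgre1 and Itgam, Vim, Lmnb1, Cdh1, Krtcap2, Krtcap3 and the list members at or near 0. Endothelial markers are given by their counts. A gene that the rule would name is not reported here. Members and lists were chosen with earlier results of these data known, so the family's direction is not independent evidence. The title numbers 1 and 2 are not said to mark a shared mouse, batch or day. A chi-square of 279 per degree of freedom in the MycCaP-BMP4 pair and 43.2 in the MycCaP pair exceeded sampling noise, and the libraries were counted as separate samples.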

Additional observations from a re-analysis of the deposited data

How the results depend on the processing

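With 2 libraries a group, the count of calls depended on the processing. Across all genes and among the keratins in the fit, edgeR called 65 and 4 with library size alone, 1122 and 6 scaled on the pan-macrophage genes, and 1109 and 5 (of 30) with no filter. DESeq2's test called 1385 and 6. With the replicate number as a block, edgeR called 2 genes and no keratin. The numbers are not known to pair the samples, and deviations of same-numbered libraries correlated across genes at -0.127. A fit with the numbers crossed, chosen after seeing the data, called 689 genes and 5 keratins. Leaving out 1 library gave 0 to 5753 genes, 0 to 10 keratins and a keratin median log2 fold change of 0.84 to 3.80, over 11 to 15 keratins. That median was 4.15 scaled on macrophage genes, 1.29 with no filter and 2.76 with at least 1 CPM in 2 libraries, where the set of keratins tested changed in the last 2.

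Krt15, Krt6a, Krt19, Krt13, Krt78 and Krt36 stayed positive in each of the 13 other settings. Krt10 turned from -0.02 to 0.0020 with DESeq2's size factors, 0.17 with library size alone, 1.77 scaled on macrophage genes, 0.0016 with DESeq2's test and 0.00065 with limma-voom, and ranged from -0.30 to 0.30 with 1 library left out. Krt4 turned to 1.03 scaled on macrophage genes. Krt7 turned to -0.11 with the replicate block, -0.10 with it crossed and -0.083 with limma-voom. With 1 library left out, Krt7 ranged from -0.84 to 0.65, Krt8 from -0.27 to 0.81 and Krt80 from -0.031 to 0.20. The cause was not tested. Counts under 3 per library limit what can be said of the 36 keratins with fewer than 10 counts in all.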
